A study of Mus musculus with 8 samples.

Results

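The genes described here are 9 members of the inflammasome, gasdermin D and interleukin-1 family: Nlrp3, Pycard, Casp1, Casp4, Gsdmd, Il1b, Il18, Il1rn and Il1r1. They were found by symbol in a table of RNA-seq values from mouse heart, and all 9 had values, among 18835 genes with values in all. The set was selected on the VEGF-C against PBS comparison of the same 8 libraries, whose fold changes and adjusted p-values were in view, so the members' own differences in it are given as a description, with no test.

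The 8 libraries came from hearts of male BALB/cAJcl mice, aged 10 weeks per the labels, in which autoimmune myocarditis had been induced by immunization with cardiac myosin; the PBS animals carried the disease as well, and no healthy heart is part of the comparison. In 4 of them VEGF-C C156S, a mutant of the lymphatic growth factor that acts through VEGFR-3, had been injected into the peritoneum at 1 µg per day from day 7 to day 10 after immunization, and 4 had received PBS; tissue was taken in week 3. The labels do not say that every library is from a separate mouse, so p-values measure the spread between these libraries. The title speaks of lymphatic endothelial cells, but every label gives heart. The summed level of 7 cardiomyocyte markers was 2284778 to 3082566 normalized counts in PBS libraries, and that of 6 lymphatic endothelial markers was 13636 to 20781. The values are therefore those of whole tissue, in which fewer cells of a type and less RNA per cell cannot be told apart. Recovered read totals were 61.7 to 76.8 M in PBS and 53.7 to 65.2 M in VEGF-C, so the treated libraries were on the whole the shallower ones. PBS replicate 1 stood apart from the other PBS libraries in several members below, and their fold changes are also given without it. Replicate numbers are those of the table's columns, which tie to no animal, and PBS 2 or VEGF-C 3 stands for the replicate of that number.

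Inflammasomes are protein platforms that sense danger inside a cell. A sensor such as NLRP3 recruits the adaptor ASC, the product of Pycard, which gathers and activates caspase-1. Caspase-1 cuts the precursors of interleukin-1β and interleukin-18 and cuts gasdermin D, whose freed end forms pores in the plasma membrane through which the cytokines leave and by which the cell can die. Mouse caspase-11, the product of Casp4, binds bacterial lipopolysaccharide in the cytosol and also cuts gasdermin D. Secreted interleukin-1β acts through the receptor encoded by Il1r1, and the antagonist encoded by Il1rn occupies that receptor without signalling. Because cutting of the proteins is the main control step, transcript levels describe the supply of components and not inflammasome activity. In an inflamed heart these genes are known mainly from macrophages, monocytes and neutrophils, while Il1r1 is also carried by fibroblasts and endothelium.

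All 9 members were lower on average in the VEGF-C hearts, by 14.6% for Pycard at the least and by 57.6% and 58.9% for Gsdmd and Il1b at the most. Without PBS replicate 1 the differences were 55.3% for Gsdmd, 43.9% for Il1b, 19.4% for Il1rn in place of 43.2%, and 2.82% for Nlrp3 in place of 27.7%. The median log2 fold change of the 9 was -0.55, where the median over all 18835 genes was 0.00. In the fit over all genes by limma, 4 members had an adjusted p under 0.05 and were lower, namely Gsdmd, Casp1, Casp4 and Il1b, and 5 members did not. The background is 8.61% of all genes lower by that rule, and since this contrast was known when the members were chosen, nothing is read from the count. The PBS and VEGF-C libraries did not overlap in 5 members, those 4 and Il1r1, beside 11.6% of all genes that were lower without overlap and 23.0% that did not overlap in either direction.

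**Figure D1:**
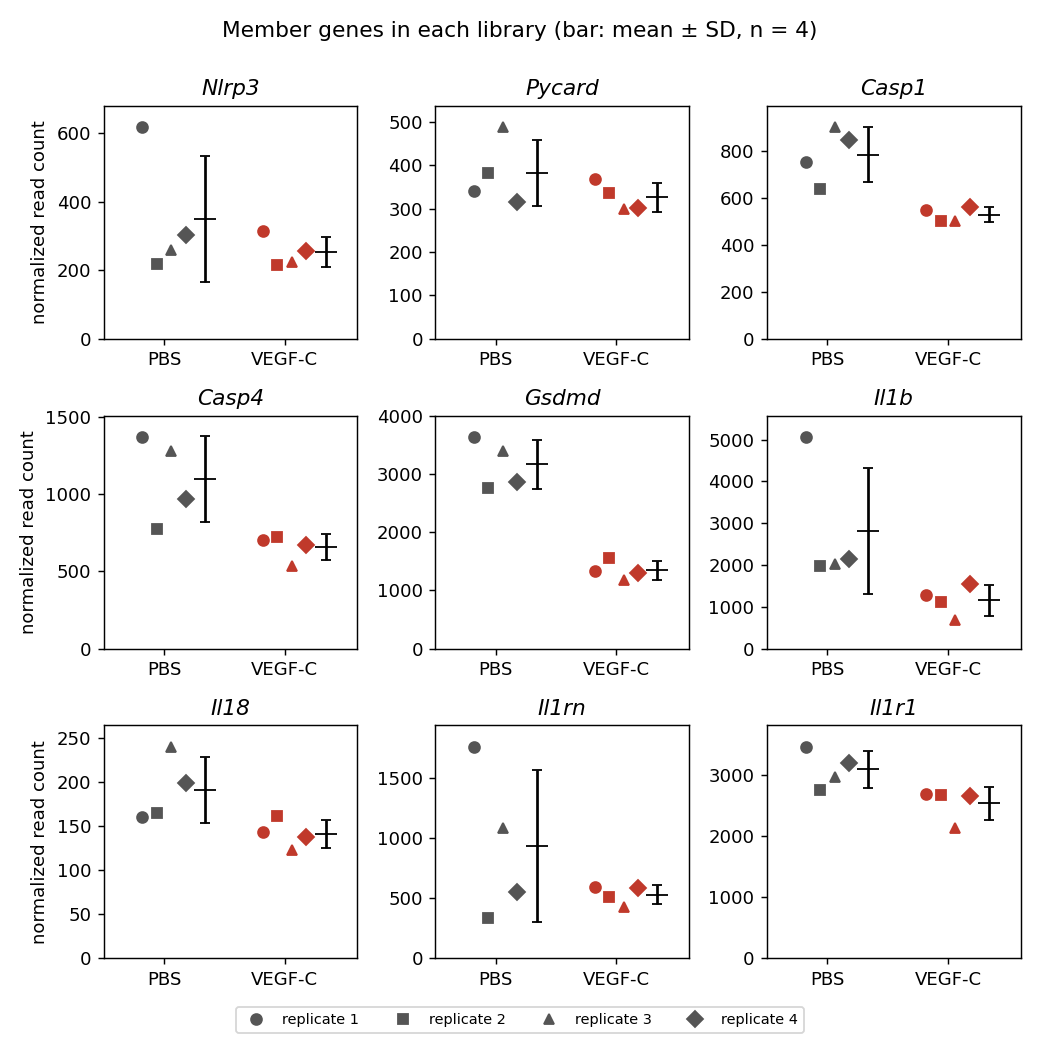
Normalized read count (vertical axes, each from 0) of the 9 members in 4 PBS (grey) and 4 VEGF-C libraries (red); symbols mark the replicate number and bars give the mean ± SD. The groups stand clear of each other in Gsdmd, Casp1, Casp4, Il1b and Il1r1, and PBS replicate 1 is far above the other PBS libraries in Il1b, at 5068 counts, and in Nlrp3, at 619 counts.

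Gsdmd (ENSMUSG00000022575), the pore former at the end of the pathway, had the clearest separation of the members. Its normalized counts were 3644, 2769, 3397 and 2862 in PBS replicates 1 to 4 and 1340, 1554, 1180 and 1304 in VEGF-C replicates 1 to 4. The highest treated library lay well below the lowest control library, and the spread within each group was small beside that gap. Their means were 3168 ± 421 and 1344 ± 155 (SD, n = 4), so that the log2 fold change was -1.23 ± 0.11 (SE). Without PBS replicate 1 it was -1.16 ± 0.11.

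Gsdme, which encodes a related pore former that is cut by caspase-3 instead, had a log2 fold change of -0.39 ± 0.14 that did not pass (limma adjusted p = 0.0939), though it did with library totals (0.0227). The ratio of Gsdmd to Gsdme normalized counts was 8.31 to 9.04 in PBS libraries and 4.24 to 5.54 in VEGF-C libraries. Gsdmd was chosen on this contrast, so the ratio largely restates its plain counts and is a description.

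Of the caspases, Casp1 (ENSMUSG00000025888), the protease of the canonical inflammasome, was read at 751, 635, 900 and 844 normalized counts in PBS replicates 1 to 4. In VEGF-C replicates 1 to 4 it was read at 547, 499, 501 and 560. The treated libraries lay close together and all below the controls, of which PBS replicate 2 was nearest. On the log2 scale the difference was -0.56 ± 0.12 (SE), and -0.57 ± 0.13 without PBS replicate 1.

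Casp4 (ENSMUSG00000033538), which encodes caspase-11, was read at 1372, 772, 1278 and 967 normalized counts in PBS and at 704, 726, 538 and 673 in VEGF-C. The groups did not overlap, but the gap between PBS replicate 2 and VEGF-C replicate 2 was narrow. Casp4 differed by -0.70 ± 0.18 (SE) on the log2 scale, and by -0.58 ± 0.17 without PBS replicate 1. Among the 4 members counted above, Casp4 dropped out once PBS 3 or VEGF-C 1, 3 or 4 was left out.

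Promoter windows were searched for letters that NF-kappaB, the factor known to prime inflammasome genes, can bind. RefSeq promoter windows of build GRCm38.p6 were at hand for 8 of the 9 members (all but Gsdmd), in 13 windows. The search covered the 250 bases before each start, on both strands, for GGGA, any 4 bases and CC. A match was found for 3 of the 8 genes, in 4 of the 13 windows, and in 17.6% of all 32851 windows. The stretches below hold the matches of Casp4, Il1rn and Nlrp3, with 25 bases on each side. They are shown because these 3 genes are the members with a match. Capitals mark the match, and all 3 genes lie on the plus strand.
Casp4, chr9:5308732-5308791: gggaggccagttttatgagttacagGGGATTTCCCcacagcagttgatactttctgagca
Il1rn, chr2:24336781-24336840: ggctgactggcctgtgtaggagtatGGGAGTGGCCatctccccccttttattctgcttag
Nlrp3, chr11:59541358-59541417: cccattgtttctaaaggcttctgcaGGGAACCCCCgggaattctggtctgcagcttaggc
The Casp4 match fulfils the pattern on both strands and lies 92 bases before one annotated start and 103 before another. The Casp4 windows therefore share that match. A match is a description of letters and not of binding, and the same search found none in the windows of the other 5 genes. The interferon-response letters GAAA, any 2 bases and GAAA, were in none of the 13 windows and in 2.98% of all windows. Letters for the factors C/EBP (TT, any 2 bases and GCAA) were found for Il1r1 and Pycard, and in 9.56% of all windows. Those for PU.1 and other ETS factors (GAGGAAG) were found for Nlrp3 and Pycard, and in 10.6% of all windows.

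Upstream of the caspases, Nlrp3 (ENSMUSG00000032691), the sensor, was read at 619 normalized counts in PBS replicate 1 and at 217, 260 and 304 in PBS replicates 2 to 4. The VEGF-C libraries gave 314, 216, 225 and 258. Apart from PBS replicate 1 the groups lay on top of each other. The log2 fold change was -0.36 ± 0.28 (SE) with that library and -0.04 ± 0.18 without it.

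Pycard (ENSMUSG00000030793), the adaptor, was read at 341, 382, 489 and 316 normalized counts in PBS and at 369, 336, 299 and 301 in VEGF-C. The groups overlapped and the log2 fold change was -0.21 ± 0.15 (SE). Sensor and adaptor thus overlapped between the groups, while Casp1, Casp4 and Gsdmd did not, Casp4 only narrowly. Of all genes, 11.6% were lower without overlap. The members were chosen on this contrast, so no order along the pathway is read from it.

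Among the cytokines, Il1b (ENSMUSG00000027398), which encodes the precursor of interleukin-1β, was read at 5068, 1986, 2026 and 2153 normalized counts in PBS replicates 1 to 4. In VEGF-C replicates 1 to 4 it was read at 1289, 1108, 678 and 1539. The groups did not overlap, and PBS replicate 1 was above every other library by a wide margin. Its log2 fold change was -1.22 ± 0.32 (SE), and -0.89 ± 0.22 without PBS replicate 1, with both values on the side of lower expression. Il1b dropped out of the 4 members counted above once VEGF-C 1, 2 or 3 was left out or with a robust variance fit.

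Il18 (ENSMUSG00000039217), the other cytokine that caspase-1 cuts, was the member with the fewest reads, 110 to 274 per library. Its normalized counts were 160, 164.3, 240 and 199 in PBS and 143, 161, 123 and 137 in VEGF-C. The groups touched, since VEGF-C replicate 2 was level with PBS replicate 1. The log2 fold change was -0.41 ± 0.17 (SE) and became -0.49 ± 0.18 without PBS replicate 1.

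Il1rn (ENSMUSG00000026981), the receptor antagonist, varied most among the controls relative to its mean, at 1764, 338, 1088 and 554 normalized counts. The VEGF-C libraries were close together, at 594, 516, 430 and 588, and lay inside the range of the controls. The log2 fold change was -0.55 ± 0.41 (SE), and -0.16 ± 0.31 without PBS replicate 1. The ratio of Il1rn to Il1b counts, a description of antagonist to ligand reads with gene length left in, was 0.170 to 0.537 in PBS and 0.382 to 0.635 in VEGF-C. These ranges overlapped.

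Il1r1 (ENSMUSG00000026072), the signalling receptor, was read at 3463, 2760, 2966 and 3191 normalized counts in PBS and at 2688, 2667, 2132 and 2662 in VEGF-C. The groups did not overlap, but VEGF-C replicate 1 and PBS replicate 2 were almost level, and VEGF-C replicate 3 was low in its group. The log2 fold change was -0.29 ± 0.10 (SE), the smallest among the members without overlap, and -0.23 ± 0.10 without PBS replicate 1.

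**Figure D2:**
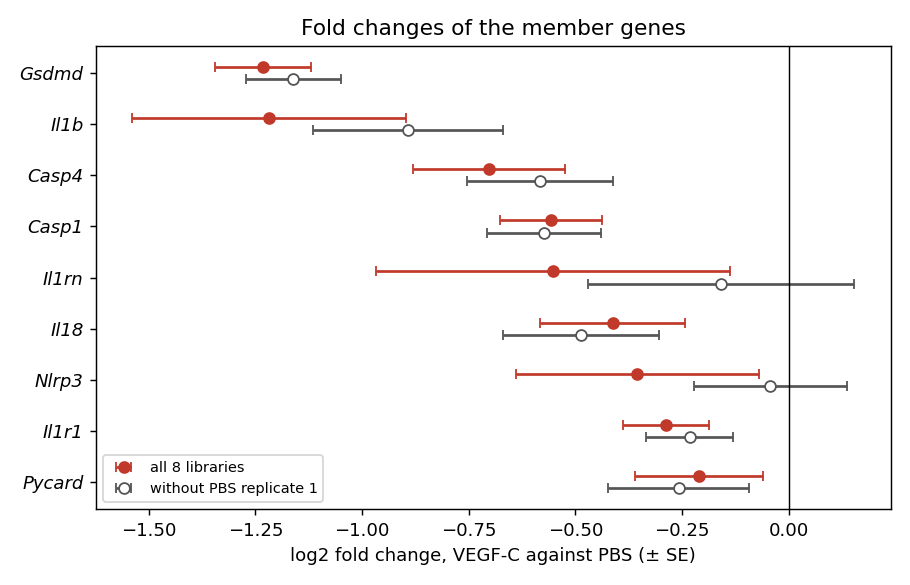
Log2 fold change of each member, VEGF-C against PBS (horizontal axis, points, with bars of 1 SE), with all 8 libraries (red) and without PBS replicate 1 (open grey). All points are below 0, and leaving that library out moves Nlrp3 to -0.04 and Il1rn to -0.16 while Gsdmd, at -1.16, and Casp1, at -0.57, hardly move.

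Levels can be compared between genes only per length, here as normalized reads per kilobase of the union of a gene's annotated exons. In PBS hearts Il1b (1473 ± 791, SD, n = 4) and Gsdmd (1333 ± 177) were the most abundant members, and their ranges overlapped. Casp1 (523 ± 77.6) and Il1r1 (486 ± 47.4) followed, also with overlapping ranges, and both were clear of Gsdmd above and Casp4 below. Casp4 (296 ± 74.8), Il18 (185 ± 35.9), Il1rn (169 ± 115), Pycard (101 ± 20.1) and Nlrp3 (86.3 ± 45.1) each overlapped with the next. The sensor thus had the lowest mean of the 9 in both groups, at 62.4 ± 10.9 per kilobase in VEGF-C. Without PBS replicate 1 the PBS means were 1078 ± 45.8 for Il1b, then below Gsdmd at 1266 ± 143, and 119 ± 69.7 for Il1rn and 64.2 ± 10.7 for Nlrp3 (SD, n = 3). In the VEGF-C hearts Il1b (605 ± 190) and Gsdmd (566 ± 65.4) had the highest means. Il1r1 (399 ± 42.5) came before Casp1 (352 ± 21.1) there, with overlapping ranges.

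**Figure D3:**
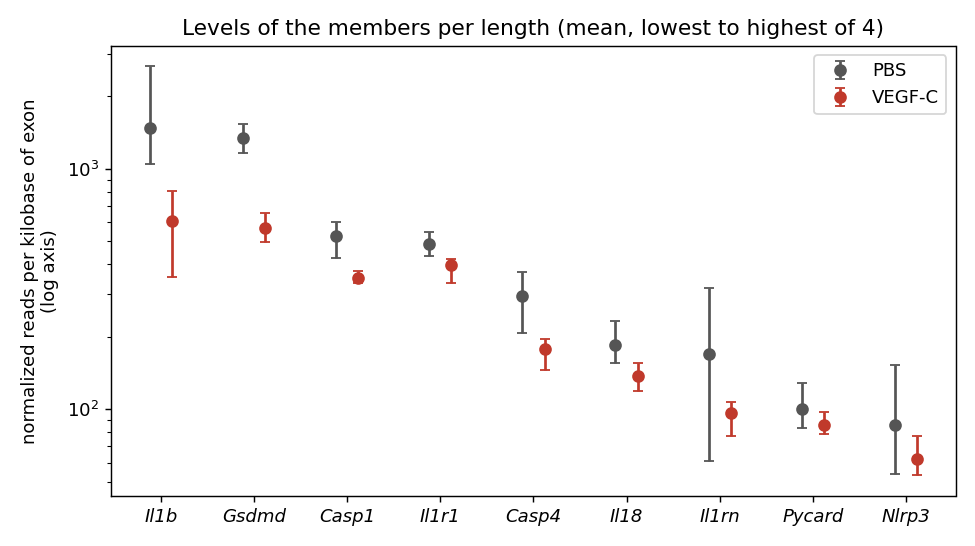
Normalized reads per kilobase of exon (vertical log axis) for each member in PBS (grey) and VEGF-C (red); points are means and bars run from the lowest to the highest of 4 libraries. Il1b and Gsdmd lead in both groups and Nlrp3 is last, at 86.3 in PBS and 62.4 in VEGF-C.

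After each group's mean was subtracted, the members were compared across the 8 libraries by Pearson's r of log2 values, as a description of libraries that share their scaling. Of 36 pairs 31 had a positive r, with a median of 0.50, and without PBS replicate 1 it was 35 with a median of 0.56. Casp4 and Il1rn were most alike (r = 0.93, and 0.93 over 7 libraries without PBS replicate 1), followed by Casp4 and Gsdmd (0.90, and 0.86 without). Nlrp3 and Il18 were least alike (-0.34), but that pair came to 0.25 without PBS replicate 1. Nlrp3 was like Il1b (0.83) and Il1rn (0.79) with that library, and less so without it (0.47 and 0.44). Casp4 and Il18 went the other way, from 0.42 to 0.97, and were then the most alike.

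The same measure over 13246 other genes named those most like each member, again over 8 libraries. The gene most like Gsdmd was Il1r2 (r = 0.996), which encodes the decoy receptor of interleukin-1, followed by Ltb4r1 (0.987), a receptor for leukotriene B4. For Nlrp3 they were Parp14 (0.994) and the peptide transporter gene Tap1 (0.991), then Pik3cd (0.986), a kinase subunit of leukocytes. For Il1rn they were Slc15a3 (0.992), Scimp (0.984) and Set (0.983), for Il1r1 Selp (0.960), which encodes P-selectin, Serpina3n (0.956) and Zbtb5 (0.945), and for Il1b Trim63 (0.975), Angptl4 (0.973) and Rps6ka4 (0.965). For Pycard they were the translation genes Eif3h (0.988) and Rps7 (0.986) and the autophagy gene Gabarap (0.979). For Casp1 they were Glmn (0.966), Cggbp1 (0.964) and Zfp87 (0.955), and for Casp4 Vsig2 (0.979), Ttc39b (0.976) and Klra2 (0.972). The third for Gsdmd was Igkv12-46 (0.984), a segment of the kappa light chain family, and for Il18 they were Plxna4os1 (0.976), Ubxn8 (0.974) and Banf2os (0.966). These likenesses are the highest among 13246 genes over few libraries, so they are a description and nothing is read from their size. Without PBS replicate 1 those of Nlrp3 were 0.970, 0.962 and 0.927, those of Il1b 0.952, 0.945 and 0.916, and those of Il1rn 0.984, 0.967 and 0.989, in the order given.

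Markers of the cells that are known to express these genes moved in part with the members. For the counts below, 49.8% of all genes had negative fold changes, 8.61% passed as lower and 7.05% as higher. The summed level of 8 macrophage markers was 70601 to 84996 normalized counts in PBS and 68722 to 83956 in VEGF-C, and 0 of the 8 passed by limma or by limma-voom (1 had an unadjusted p under 0.05). All 6 monocyte markers had negative fold changes and 2 passed as lower, with sums of 9046 to 14185 in PBS and 6749 to 9682 in VEGF-C. All 8 neutrophil markers had negative fold changes and 2 passed as lower, with sums of 17144 to 43330 and 10834 to 32984. All 7 dendritic cell markers had negative fold changes (sums of 3850 to 6586 against 2751 to 3906), of which 0 passed by limma or by limma-voom and 2 had an unadjusted p under 0.05. Of 6 B cell markers all were negative and 4 passed (2688 to 4542 against 706 to 1847). T cell marker sums ranged from 2688 to 3904 in PBS and from 2745 to 3761 in VEGF-C. Fibroblast marker sums were 307772 to 434978 in PBS and 464573 to 548959 in VEGF-C, without overlap, but only 4 of 6 markers had positive fold changes (median 0.09) and 1, Col1a1, passed as higher. Cardiomyocyte sums were 3140388 to 3427368 in VEGF-C, above those of PBS, with 6 of 7 markers positive (median 0.34) and 1, Actn2, passing as higher. Both sums rest mostly on a few abundant genes, such as Col1a1 and Col1a2 or Myh6. Blood endothelial sums were 70340 to 83926 in PBS and 72330 to 86615 in VEGF-C, and lymphatic sums in VEGF-C were 15338 to 26804. No marker of any list was at 0 in any library. The part of monocytes, neutrophils, dendritic cells and B cells in the members' values was not tested.

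Against the macrophage markers the members could be set within each library. The marker sums were 76961 ± 6090 in PBS and 75160 ± 6891 in VEGF-C (SD, n = 4). The members were chosen on this contrast, so the ratios largely restate their plain counts and are a description. No ratio was taken to the monocyte or neutrophil markers, which all had negative fold changes. Gsdmd was 41.4 ± 6.96 counts (SD, n = 4) per 1000 macrophage marker counts in PBS and 17.9 ± 1.78 in VEGF-C, with 36.8 as the lowest control and 20.1 as the highest treated value. Casp1 was 8.51 to 10.9 and 6.46 to 7.92, Casp4 10.4 to 19.4 and 7.83 to 9.51, Il1b 23.8 to 71.8 and 9.86 to 21.8, and Il18 2.20 to 2.82 and 1.71 to 2.09. On that scale the groups did not overlap in these 5 members, whereas they did in Nlrp3, Pycard, Il1rn and Il1r1. As plain counts 11.6% of all genes were lower without overlap. The share on the macrophage scale was not computed, so nothing is read from the number of members. Il18, which overlapped as plain counts, was thus clear between the groups here, and Il1r1, which had not overlapped, did so.

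**Figure D4:**
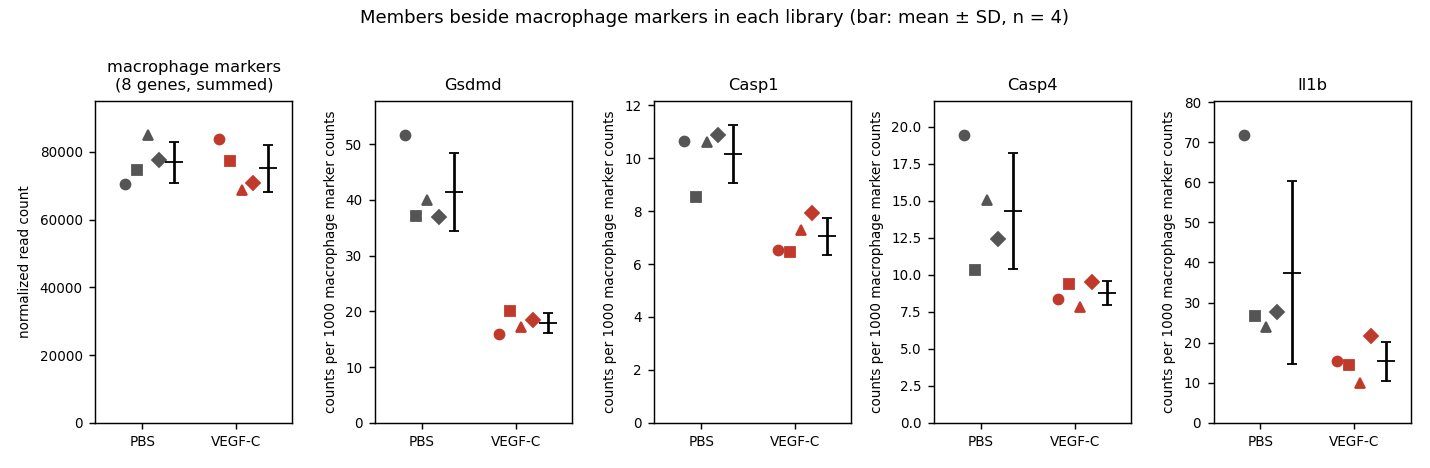
Summed normalized count of 8 macrophage markers (left) and Gsdmd, Casp1, Casp4 and Il1b as counts per 1000 macrophage marker counts (others), in 4 PBS (grey) and 4 VEGF-C (red) libraries, with the mean ± SD. The marker sums overlap between the groups, from 70601 to 84996 in PBS. The 4 ratios do not overlap, and neither did the plain counts of these members.

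Beyond the members, 102 genes of the pathway were listed by role, and 91 of them had values. Of these, 19 were lower and 5 higher in VEGF-C at a limma adjusted p under 0.05, with a median log2 fold change of -0.26. Over all genes tested 8.61% were lower and 7.05% higher, and among these pathway genes it was 20.9% and 5.49%. The lists were chosen with earlier results of these data known, so nothing is read from the difference between these shares. Without PBS replicate 1 the numbers were 16 lower and 6 higher. They came to 9 and 0 without VEGF-C replicate 3 and to 10 and 1 without VEGF-C replicate 1, and the higher calls numbered 0 to 2 without any 1 of the other libraries. With library totals as the scale 40 were lower and 0 higher, beside 3572 and 243 of all genes, and with upper-quartile factors 21 and 1.

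Other inflammasome sensors and activators were lower in VEGF-C in 6 of 14 measured genes and higher in 1, with a list median of -0.60. Aim2, a sensor of cytosolic DNA, fell by 0.91 ± 0.12 on the log2 scale (limma adjusted p = 0.00136); its group means were 775 ± 118 in PBS and 408 ± 17.2 in VEGF-C (SD, n = 4). P2rx7, the ATP-gated channel that triggers NLRP3, fell by 0.59 ± 0.08 on the log2 scale (limma adjusted p = 0.00196), and its libraries were read at 1530 to 1639 in PBS and 965 to 1149 in VEGF-C. Naip5 and Naip6, which encode receptors for bacterial flagellin, fell by 1.67 and 1.15, and Nlrc4, whose protein they activate, fell by 0.66. Naip genes are near-identical copies, so how their reads were divided is uncertain. The other calls in this list lie outside the naming rule and were picked after their values were seen. Mefv, which encodes the sensor pyrin, fell by 1.11, and Nek7, a kinase that NLRP3 needs, rose by 0.28. Leaving out PBS 3 or VEGF-C 1 or 3 ended the call of Nlrc4 (limma adjusted p up to 0.0619). Leaving out any 1 library but PBS 2 ended that of Mefv (up to 0.110), as did limma-voom and a robust variance fit, and any 1 but PBS 1 that of Nek7 (up to 0.0989). Nek7 also lost its call with library totals (limma adjusted p = 0.456) and with upper-quartile factors (0.0740), while Aim2, P2rx7, Naip5 and Naip6 stayed under 0.05 without any 1 library.

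The other caspases and executors of lytic death gave 1 call in 12 measured genes, with a median of -0.21. Ripk3, the kinase that starts necroptosis, fell by 0.55 ± 0.13 (limma adjusted p = 0.0203), and this was lost without VEGF-C replicate 3 (0.0513). Casp8, an initiator caspase that can also cut gasdermin D, had a fold change of -0.25 ± 0.14 (limma adjusted p = 0.233), and Ninj1, whose protein ruptures the membrane after the pore has formed, one of 0.03 ± 0.12 (0.894). The sign of Ninj1 changed with library totals and with upper-quartile factors.

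Receptors of the wider family were lower in 4 of 7 genes, with a median of -0.54, and they were those of interleukins 18, 33 and 36. Il18rap and Il18r1, the chains of the interleukin-18 receptor, fell by 1.04 ± 0.23 and 0.91 ± 0.25 (limma adjusted p = 0.0165 and 0.0339). In Il18rap the libraries were read at 988, 483, 643 and 426 normalized counts in PBS and at 270, 348, 295 and 259 in VEGF-C. Il1rl2, the receptor for interleukin-36, fell by 0.54 ± 0.13, and Il1rl1, the receptor for interleukin-33, by 0.70 ± 0.18. The decoy receptor Il1r2 had a fold change of -0.45 ± 0.44 and the shared chain Il1rap one of 0.05 ± 0.12; neither passed (limma adjusted p = 0.510 and 0.796), and the sign of Il1rap changed with library totals and with upper-quartile factors. Leaving out VEGF-C 1 ended the call of Il1rl2 (limma adjusted p = 0.0523). That of Il1rl1 went with PBS 2, 3 or 4 or VEGF-C 1 or 3 left out (up to 0.0693), and that of Il18r1 with PBS 2 or 3 or VEGF-C 1, 3 or 4 left out (up to 0.0891), while Il18rap stayed under 0.05 (up to 0.0457).

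Of the other ligands 4 had values and 1 passed. Il36g, a ligand of Il1rl2, fell by 1.19 ± 0.34 (limma adjusted p = 0.0404), from 385, 117, 161 and 168 normalized counts in PBS to 75.3, 119.5, 61.6 and 72.9 in VEGF-C. The groups overlapped, and the call ended with PBS 3 or 4 or VEGF-C 1, 3 or 4 left out (limma adjusted p up to 0.102) and with limma-voom (0.0642). Il1a, the ligand that is active without caspase-1, had a fold change of -0.78 ± 0.29 (limma adjusted p = 0.0916, and 0.0434 with library totals) at only 27.6 to 91.1 counts. Il33, an alarmin of stromal cells, had one of 0.00 ± 0.17 and Il18bp, the secreted inhibitor of interleukin-18, one of -0.10 ± 0.24.

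**Figure D5:**
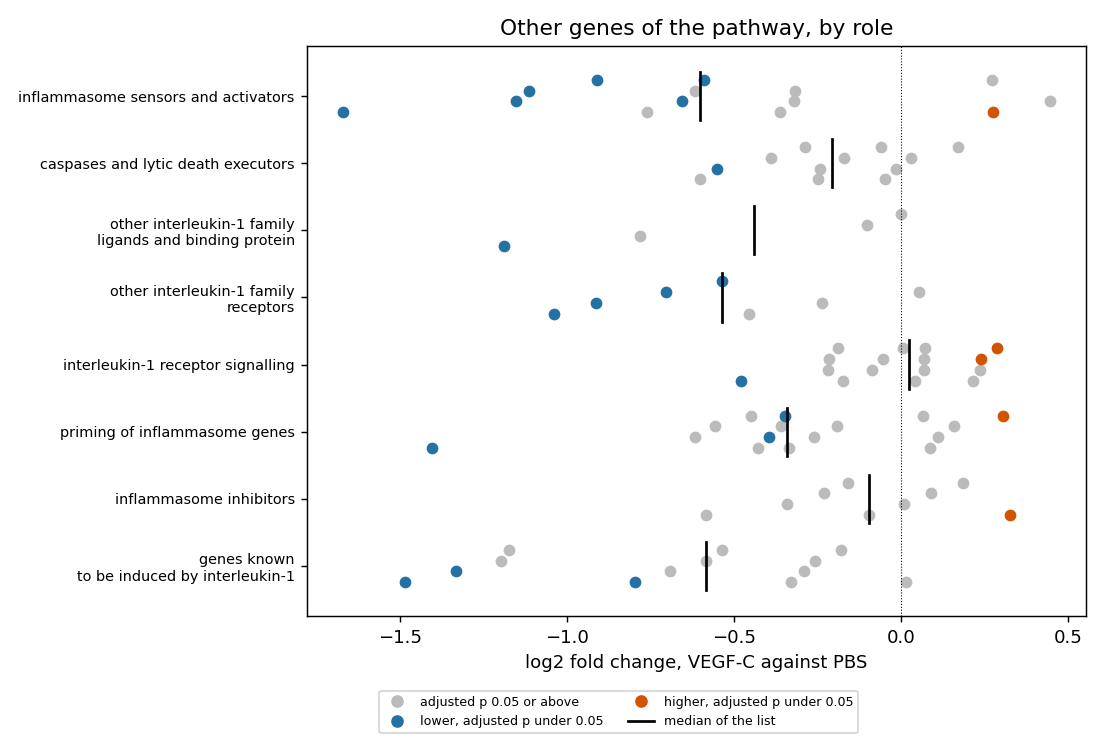
Log2 fold change, VEGF-C against PBS (horizontal axis), of 91 pathway genes that are no members, in rows by role; blue and orange points passed a limma adjusted p of 0.05 as lower and higher, grey points did not, and the bar is the median of the row. The sensors (median -0.60) and receptors (-0.54) hold 10 of the 19 lower calls.

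Signalling below the receptor had a median of 0.02, with 1 gene lower and 2 higher of 16. Ikbkb, the kinase that frees NF-kappaB, was read at 3629 ± 131 in PBS and 2600 ± 67.6 in VEGF-C (SD, n = 4) and fell by 0.48 ± 0.06 on the log2 scale (limma adjusted p = 0.00132). The regulator Tollip and the ubiquitin enzyme Ube2n rose by 0.24 ± 0.07 and 0.29 ± 0.08 (limma adjusted p = 0.0360 and 0.0345). Both calls were lost with library totals (0.635 and 0.399), with upper-quartile factors (0.0764 and 0.0678) and without most single libraries, that of Tollip without any 1 (limma adjusted p up to 0.0873) and that of Ube2n without any 1 except PBS replicate 1 (up to 0.0812). The adaptor Myd88 had a fold change of -0.19 ± 0.14 (limma adjusted p = 0.373).

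Among 16 genes that prime or license inflammasome expression 3 were lower and 1 higher, with a median of -0.34. Tnf fell by 1.41 ± 0.22 (limma adjusted p = 0.00375), from 365, 367, 200 and 230 normalized counts in PBS to 129, 96.1, 96.4 and 95.0 in VEGF-C, and stayed under 0.05 without any 1 library (up to 0.0140). Relb, an NF-kappaB subunit, and Tnfaip3, a brake on NF-kappaB, fell by 0.40 and 0.35, and Irf2, a factor known to drive Gsdmd transcription, rose by 0.31 ± 0.07 (limma adjusted p = 0.0198). A link between Irf2 and the level of Gsdmd was not tested. The call of Relb ended with PBS 1, 2 or 3 or VEGF-C 2, 3 or 4 left out (limma adjusted p up to 0.0944) and that of Tnfaip3 with PBS 1 or 3 or VEGF-C 1, 2 or 3 left out (up to 0.0863). Irf2 did not pass with VEGF-C 2 or 3 left out (up to 0.0535) or with library totals (0.237). The list of inflammasome inhibitors had 9 measured genes, not all of them established as inhibitors. Of these 1 passed, Card19, which rose by 0.33 ± 0.08 (limma adjusted p = 0.0272). That call ended with PBS 3 or 4 or VEGF-C 1, 2 or 3 left out (limma adjusted p up to 0.0749). It also ended with library totals (0.249) and with upper-quartile factors (0.0603).

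Of 13 measured genes that interleukin-1 is known to induce, 12 had negative fold changes (median -0.58) and 3 passed as lower. Over all genes 49.8% had negative fold changes and 8.61% passed as lower. This list too was chosen with earlier results of these data known, so the counts are a description. Il6 fell by 1.49 ± 0.41 (limma adjusted p = 0.0343), from 457, 309, 187 and 388 normalized counts in PBS to 187, 104, 47.1 and 163.6 in VEGF-C. Here the lowest control and the highest treated library were nearly level. The neutrophil chemokine gene Cxcl1 fell by 1.33 ± 0.32 (limma adjusted p = 0.0212) and the monocyte chemokine gene Ccl2 by 0.80 ± 0.23 (0.0429). The call of Il6 ended with PBS 1, 2 or 4 or VEGF-C 2 or 3 left out (limma adjusted p up to 0.0778), and that of Cxcl1 with PBS 2 or VEGF-C 1, 2 or 3 left out (up to 0.0597). With a robust variance fit both calls were narrowly lost (limma adjusted p = 0.0545 and 0.0515). Ccl2 passed with PBS 1 or 3 left out and with no other library left out (up to 0.0989), and not with limma-voom (0.0638). Other signals, Tnf among them, are also known to induce these genes.

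The authors' deposited table gives the same direction for every member and an adjusted p under 0.05 for 4 of the 9, all lower, where 11.4% of the genes with an adjusted p are lower by that rule. The share under that threshold in either direction is 21.7% in the authors' deposited table. In the authors' deposited table Gsdmd has a log2 fold change of -1.24 and Il1b one of -1.28, and Casp4 and Casp1 follow with -0.73 and -0.57. As with the limma call rule, nothing is read from the count, since the same contrast was known.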

How the data were processed

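RNA-seq of 4 PBS and 4 VEGF-C heart libraries was used. The submitters' processing notes name DESeq2 1.38.3, STAR 2.7.10a, Subread 2.0.1 with featureCounts, Trim Galore 0.6.10 and build GRCm39. The annotation release, strand setting and filter rule, not given in the sources used here, stay unknown. Each deposited log2 value is log2(normalized count + 4), and 100% of values in every library came out as whole reads (tolerance 0.01) after division by 1 factor per library. The authors' log2 fold change and adjusted p-value are in the same deposited table. Normalized counts printed here are the deposited values taken back from the log2 scale, on which fold changes of low genes are understated.

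limma 3.58.1 (R 4.3.3) was fitted to the log2 values of all 18835 genes with treatment as the only factor and a trended prior variance. Its two-sided p-values were adjusted over the whole table by Benjamini-Hochberg and read against 0.05, and the fit was tested on simulated data. Alternatives were other scalings, pseudocounts of 1 and 16, a filter of 1 CPM in 4 libraries, limma-voom, a robust variance fit and leaving out each library. The members and lists were chosen with earlier results of these data known. Named were all members, a fixed set of 16 other genes, up to 4 called genes per list with at least 1 CPM, and the 3 genes most like each member (at least 1 CPM, predicted genes left out). Exon lengths and gene overlaps came from GENCODE M21 on GRCm38, matched by gene ID, so no gene coordinates are given. By that annotation Il1b, Pycard and Il18 overlap a gene on the other strand and Il1r1 a predicted gene on its own, so their reads are uncertain to that extent.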

Additional observations from a re-analysis of the deposited data

Results flagged for a closer look

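In 94 checks of 4 libraries each (47 named genes in 2 groups), 5 showed a library set far from the other 3 of its group; chance alone does so in about 1 group of 20. All values are on the deposited log2 scale. Il1b was at 12.31 in PBS replicate 1 and at 10.96 to 11.08 in the other PBS libraries. Il33 was at 10.997 in PBS replicate 1, below the other PBS libraries (11.48 to 11.53), and at 10.89 in VEGF-C replicate 3, below the other VEGF-C libraries (11.49 to 11.58). Il1r1 was at 11.06 in VEGF-C replicate 3, with the others at 11.38 to 11.39. Tnf was at 7.06 in VEGF-C replicate 1, with the others at 6.63 to 6.65.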

How the results depend on the processing

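All 9 members kept a negative fold change under each of the 16 alternatives run, which is no support, since they were chosen on this contrast. The number of members called lower was 4, 6 with library totals (Il18 and Il1r1 added), 5 with upper-quartile factors and 3 with a robust variance fit; without 1 library it ran from 2 to 4. With library totals, which moved the median of all genes by -0.19, 243 genes were called higher and 3572 lower over all genes, and 0 and 40 (40 in all) among the pathway genes. With upper-quartile factors 797 genes were higher over all genes and 1 among the pathway genes. Leaving out 1 library gave 591 to 1268 genes higher, 1093 to 1638 lower and 1684 to 2906 in either direction over all genes, against 1328, 1621 and 2949 with all libraries. Among the pathway genes it gave 0 to 6 higher, 9 to 16 lower and 9 to 22 in either direction, against 5, 19 and 24. Signs changed in 4 genes that did not pass: Ninj1 (-0.16 with library totals, -0.026 with upper-quartile factors, -0.053 to 0.11 without 1 library), Il1rap (-0.14 and -0.0014 likewise, -0.0073 to 0.14), Il33 (-0.13 to 0.16 without 1 library) and Il18bp (-0.26 to 0.13). The cause of these shifts was not tested. The fits that leave 1 library out also hold fewer libraries. No paired analysis was possible because the groups share no replicate numbers in the labels. Depth limits low genes such as Il1a, with 24 reads in its lowest library.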

Other observations

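Genes of the guanylate-binding proteins, interferon-induced GTPases that open vacuoles and bacteria to the non-canonical inflammasome, were dominated by 1 control library. They were picked for this after their values were seen. Gbp5 was read at 3888 normalized counts in PBS replicate 1 and at 1117 to 1829 in the other 7 libraries. Gbp2 was read at 10745 in that library and at 3411 to 5098 elsewhere, Gbp3 at 5933 against 2192 to 3457, and Gbp7 at 4054 against 1457 to 2554. Their log2 fold changes did not pass and shrank without PBS replicate 1, from -0.36 to -0.04 in Gbp2, -0.45 to -0.17 in Gbp3, -0.56 to -0.21 in Gbp5 and -0.43 to -0.16 in Gbp7. Irf1, an interferon-induced factor upstream of them, was read at 7458 in PBS replicate 1 and at 3316 to 4765 in the other PBS libraries, with 2719 to 3131 in VEGF-C; its fold change of -0.62 ± 0.22 (limma adjusted p = 0.0801) came to -0.37 without that library. Nlrp3, Il1b, Il1rn, Casp4, Gsdmd, Il1r1 and Aim2 were likewise highest there, whereas Casp1 was highest in PBS replicate 3. Leaving PBS replicate 1 out moved the log2 fold change of Gsdmd from -1.23 to -1.16 and that of Aim2 from -0.91 to -0.83.

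The secreted and decoy inhibitors were read in no fixed proportion to their targets. Il18bp had 6.24 to 17.3 counts per Il18 count in PBS libraries and 9.39 to 12.7 in VEGF-C libraries, and Il1r2 had 0.0739 to 0.199 counts per Il1r1 count in PBS and 0.0715 to 0.198 in VEGF-C. Both pairs of ranges overlapped, and gene length is left in these ratios.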
